A study of Mus musculus with 8 samples.

Results

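The SMAD proteins and the corepressors that bind them were followed in mouse AML12 hepatocytes cultured with or without irisin. The set comprised 10 genes, Smad1 to Smad7, Ski, Skil and Tgif1, out of 21608 genes that could be named on the array, and it was chosen by name: every probe whose transcript accession maps to 1 of these genes was taken. This gave 16 probes of 39429. None of the 16 probes differed between irisin-treated and control cells by at least 1.5-fold with an adjusted p under 0.05, whereas 12.2% of all 24008 tested probes did.

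AML12 is a hepatocyte line derived from the liver of a mouse transgenic for human TGFα, and irisin is the secreted fragment of the membrane protein FNDC5. Both groups were the same line in the same serum-containing DMEM/F-12 medium, and they differed by 0.5 µg/ml irisin for 24 h, with 4 arrays of control cells and 4 arrays of irisin-treated cells. The study used AML12 to follow what irisin does to the growth of a mouse hepatocyte. The labels number the replicates but do not say that they came from separate cultures, so the p-values measure the spread between these arrays, which may be technical.

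SMADs carry the signal of the TGFβ family from the cell surface to the nucleus. Activated receptors phosphorylate the receptor-activated SMADs, Smad2 and Smad3 downstream of TGFβ and activin and Smad1 and Smad5 downstream of the bone morphogenetic proteins (BMPs). These join the common mediator Smad4 and bind DNA with other factors. Smad6 and Smad7 inhibit the pathway and are themselves induced by it, and Ski, Skil (also called SnoN) and Tgif1 recruit histone deacetylase complexes to SMADs and hold their target genes down. In the liver the TGFβ branch restrains hepatocyte growth and drives fibrosis, and the BMP branch controls hepcidin and with it iron balance. Much of this regulation acts on phosphorylation and protein turnover, which mRNA levels do not measure.

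All values below are log2 of the background-subtracted array signal relative to the 75th percentile of the same array, so a value of 0 is the level of a fairly bright probe and differences are changes relative to the bulk of the array. Before this scaling, the 75th percentile itself was 413 to 594 signal units on the control arrays and 750 to 947 on the irisin arrays. The control arrays all lay on slide 1 and were scanned together, and the irisin arrays all lay on slide 2, so for every difference given here the treatment and the slide with its scan cannot be told apart. Between 60.0% and 64.5% of the spots were well above background on every array, none was saturated, and each of the 16 probes of the set passed the background test on each of the 8 arrays, with signals from 24.0 to 15101.5 units. Of 12 hepatocyte markers 12 were tested, which only means that their signal stood well above background. The brightest were Krt18 (7.42 ± 0.11 in control and 6.96 ± 0.15 in irisin, SD, n = 4), Trf (6.71 ± 0.13 and 6.33 ± 0.16) and Krt8 (5.47 ± 0.19 and 5.38 ± 0.15). The dimmest in control was Apoa1, at -2.84. None was called, though Krt18 (-0.46, limma adjusted p = 0.0061) and Trf (-0.38, limma adjusted p = 0.024) were lower with groups apart. Under quantile scaling these 2 changes were -0.041 and -0.019, and under spike-in scaling they were 0.11 and 0.19. The other tested probe of Trf had a change of -0.15. Of 5 cholangiocyte markers 4 were tested too, with Krt19 at 5.17 in control beside 4.18 for Alb. Of 8 stellate cell or fibroblast markers 0 reached the test, because none was ever well above background. Because the arrays measure pooled RNA of a culture, fewer cells of a kind and less RNA per cell cannot be told apart.

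The BMP-regulated receptor-activated SMADs included the member with the clearest difference. On Smad1 probe 1, the 4 control arrays read -0.62, -0.76, -0.96 and -0.79 and the 4 irisin arrays read -0.31, -0.16, -0.43 and -0.36. Every irisin array lay above every control array. The change was 0.47 (SE 0.097, 95% interval 0.25 to 0.68), or 1.38-fold higher with irisin, with a limma adjusted p of 0.0047 over all tested probes. It was therefore the single probe of the set with an adjusted p under 0.05, against 24.1% of all tested probes, and it stayed below the 1.5-fold threshold. Its adjusted p ran from 0.0056 to 0.016 when each array was left out in turn.

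The second Smad1 probe, annotated to the same transcript, did not show this. It read -4.10, -4.12, -4.44 and -4.34 in control and -4.42, -4.29, -4.61 and -4.53 with irisin, and the groups overlapped. The change was -0.21 (SE 0.11, adjusted p = 0.20), in the opposite direction to probe 1, and under normexp it was -0.49 with an adjusted p of 0.00062. Set against each other within each array, where any scaling of the whole array cancels, probe 1 exceeded probe 2 by 3.48, 3.35, 3.48 and 3.55 in control and by 4.11, 4.13, 4.18 and 4.17 with irisin. This gap was 0.68 wider with irisin and the groups did not overlap. The exact two-sided permutation p was 0.029, as low as 70 assignments of the arrays can go. After Benjamini-Hochberg adjustment over the 7 probe pairs of the set it was 0.20. The comparison was added after the values of the 2 probes were seen, so this p describes the gap and does not test it. The widening was 0.92 under normexp, 0.46 under quantile scaling and 0.43 under cyclic loess. Probe 2 was the dimmest of the set, at 24.0 to 41.1 signal units before scaling.

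Smad5, the close relative of Smad1, was measured by 2 probes that shared a direction. Probe 1 read 2.27, 2.32, 2.37 and 2.31 in control and 2.59, 2.45, 2.56 and 2.53 with irisin. Probe 2 read -1.93, -2.03, -2.05 and -1.96 in control and -1.87, -1.79, -1.78 and -1.88 with irisin. On both probes all irisin arrays lay above all control arrays, by small amounts: 0.21 (SE 0.075, adjusted p = 0.063) and 0.17 (SE 0.075, adjusted p = 0.15), neither past the test. Of probe 1 the adjusted p was 0.026 without irisin replicate 2, 0.038 under cyclic loess, 0.043 with a trended and robust limma fit and 0.012 by the methods' t-test, and of probe 2 it was 0.030 by the methods' t-test, with changes under 1.5-fold throughout these. For probe 1 the adjusted p was 0.17 with the replicate block, 0.069 under normexp and 0.066 under quantile scaling. Under normexp background correction probe 2 had a change of -0.050. Smad9, the remaining BMP receptor-activated SMAD, which stood outside the set, had a change of 0.12 (adjusted p = 0.39).

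Groups did not overlap for 5 of the 16 probes of the set, a share near the 26.8% of all tested probes. The 5 were Smad1 probe 1, Smad3 probe 2, both Smad5 probes and Ski, and nothing about a branch is read from this count. The groups of Smad1 probe 2 overlapped. As an illustration, the 250 bases before a start site of Smad1 and of Smad5 are shown. These 2 genes were picked with their values in view. They are RefSeq sequences of the GRCm38.p6 build, 5′ to 3′ on the strand of the gene, at chr8:79399429-79399678 (minus strand) for Smad1 and chr13:56702760-56703009 (plus strand) for the first of 3 Smad5 start sites. Capitals mark GGCGC or GGCCG on either strand, the GC-rich letters to which SMAD proteins can bind, and matches can overlap.
Smad1: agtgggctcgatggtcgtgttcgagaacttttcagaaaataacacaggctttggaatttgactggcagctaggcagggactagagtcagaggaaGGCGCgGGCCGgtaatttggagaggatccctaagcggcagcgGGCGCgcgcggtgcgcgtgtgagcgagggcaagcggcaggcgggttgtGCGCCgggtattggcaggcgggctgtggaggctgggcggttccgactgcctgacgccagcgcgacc
Smad5: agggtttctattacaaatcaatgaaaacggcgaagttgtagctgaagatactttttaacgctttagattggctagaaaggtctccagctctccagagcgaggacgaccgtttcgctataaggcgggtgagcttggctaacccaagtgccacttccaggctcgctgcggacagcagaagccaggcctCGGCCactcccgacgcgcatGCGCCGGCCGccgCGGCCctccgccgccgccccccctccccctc
The Smad1 stretch held 4 such matches and the Smad5 stretch 5. Promoters of 6 of the 10 genes were searched, with 12 start sites in all, and those of Smad2, Smad4, Smad7 and Skil were not. Each of the 12 held at least 1 match, as did 43.4% of the 32851 mouse promoters of the same length that were searched. These shares are not read as enrichment. The letters are all G and C, and the GC content of the 12 stretches ran from 38% to 87.6%. The 12 are also not independent, with 3 from Smad5 and 5 from Tgif1, and the stretches of Smad5 start sites 1 and 2 overlap. A comparison with promoters of equal GC content was not made. The classical SMAD box CAGAC, on either strand, was present in 4 of the 12 (1 of Smad5 and 3 of Tgif1). It was present in 42.2% of all promoters searched. The 8-letter palindrome GTCTAGAC was in 0 of the 12 and in 0.167% of all promoters searched. These are letters in a window and were not tied to any difference in signal.

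**Figure D1:**
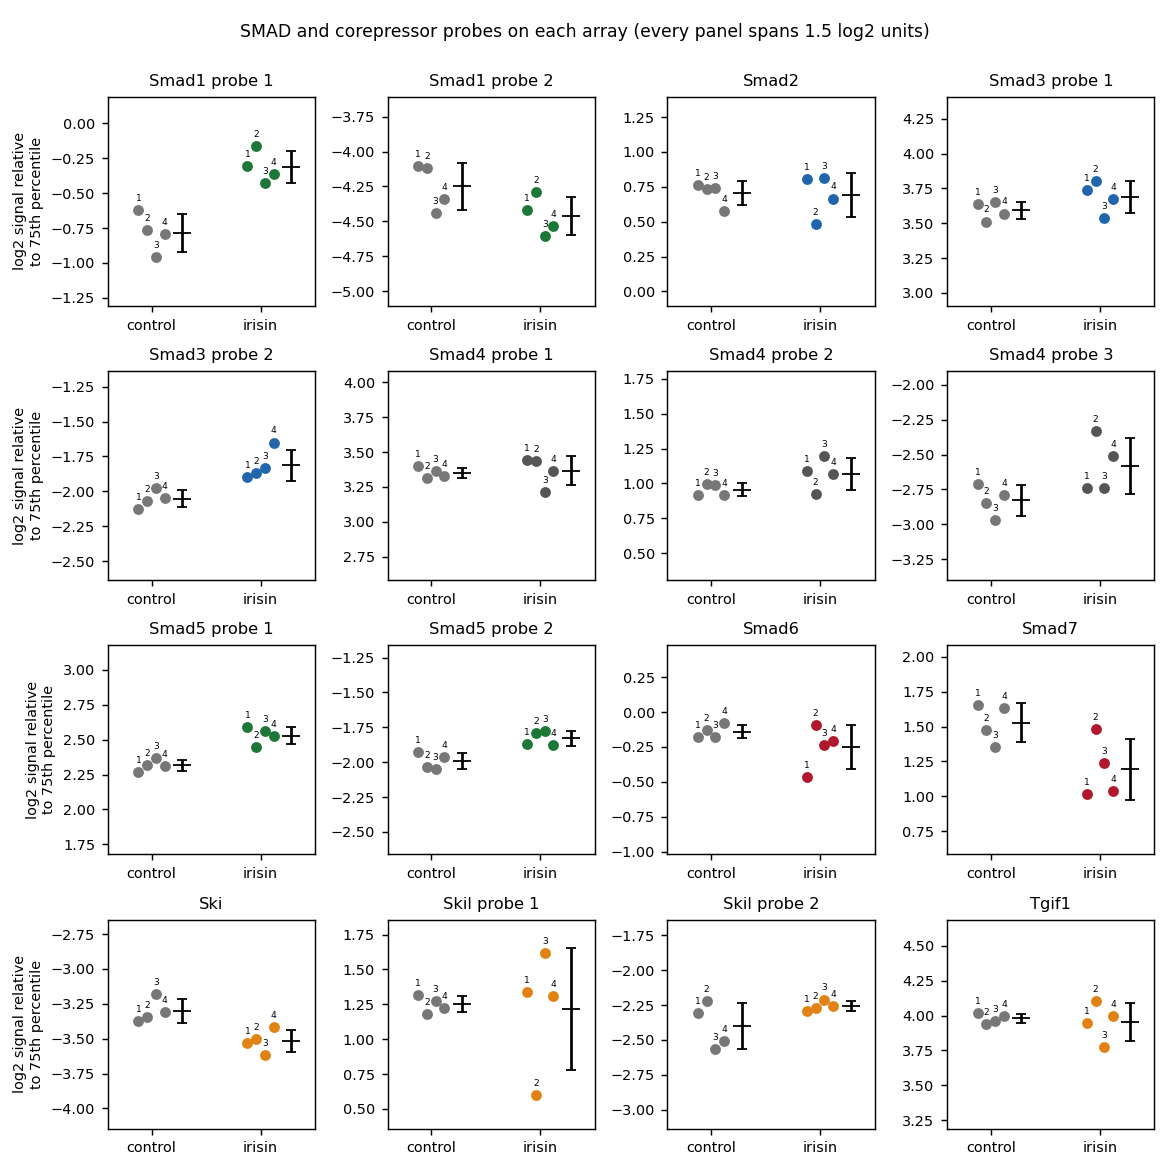
Level of each of the 16 probes on each array, as log2 signal relative to the array's 75th percentile, with control arrays in gray and irisin arrays in the color of the gene's role. Numbers give the replicate, bars the mean and SD of 4 arrays, and every panel spans 1.5 log2 units. On Smad1 probe 1, Smad3 probe 2, both Smad5 probes and Ski the groups do not overlap, and Skil probe 1 is low on irisin replicate 2.

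Of the TGFβ-regulated receptor-activated SMADs, Smad2 had the change nearest 0. Its probe read 0.76, 0.73, 0.74 and 0.57 in control and 0.80, 0.48, 0.81 and 0.67 with irisin, a change of -0.012 (SE 0.097, 95% interval -0.23 to 0.20, adjusted p = 0.95). The groups overlapped throughout, and a change of 1.5-fold in either direction lay outside the interval.

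Smad3, the SMAD that binds DNA directly in the TGFβ branch, had a bright and a dim probe. The bright probe 1 read 3.64, 3.51, 3.65 and 3.57 in control and 3.74, 3.80, 3.54 and 3.67 with irisin (change 0.094, SE 0.085, adjusted p = 0.50). The dim probe 2 read -2.12, -2.07, -1.98 and -2.05 in control and -1.89, -1.87, -1.83 and -1.65 with irisin (change 0.24, SE 0.084, adjusted p = 0.062). Only on probe 2 were the groups apart. The difference between the 2 probes within arrays moved by -0.15 (exact two-sided permutation p = 0.29, 0.57 after adjustment over the 7 pairs). Without irisin replicate 2, probe 2 had an adjusted p of 0.044 and a change of 0.26, still under 1.5-fold, and under normexp the change was 0.010 for probe 2 and 0.24 (adjusted p = 0.029) for probe 1.

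Smad4, the partner that both branches share, had 3 probes, and none passed the test. Probe 1 read 3.40, 3.31, 3.36 and 3.33 in control and 3.45, 3.44, 3.22 and 3.36 with irisin, a change of 0.016 (SE 0.081, 95% interval -0.16 to 0.20). Probe 2 read 0.92, 1.00, 0.99 and 0.92 in control and 1.09, 0.92, 1.20 and 1.07 with irisin, a change of 0.11 (SE 0.083). Probe 3, which is annotated to a predicted Smad4 transcript, read -2.71, -2.85, -2.97 and -2.79 in control and -2.74, -2.33, -2.74 and -2.51 with irisin, a change of 0.25 (SE 0.11). Adjusted p was 0.92, 0.39 and 0.14 in that order, and the groups overlapped on all 3 probes. Under normexp the change of probe 3 was 0.016.

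The inhibitory SMADs both had values below 0 for the change. Smad7, which blocks the receptors of both branches and recruits ubiquitin ligases to them, read 1.65, 1.47, 1.36 and 1.63 in control and 1.01, 1.48, 1.24 and 1.04 with irisin. Of the 4 irisin arrays, 3 lay below all controls, and irisin replicate 2 lay among them. The change was -0.33 (SE 0.12, 95% interval -0.60 to -0.067), or 1.26-fold lower, with an adjusted p of 0.071. Without irisin replicate 2 the change was -0.43 with an adjusted p of 0.011, still short of 1.5-fold, and over all arrays left out in turn the adjusted p ran from 0.011 to 0.19. On all 8 arrays a trended and robust limma fit gave an adjusted p of 0.044. Other fits on all arrays did not pass: the adjusted p was 0.135 by the methods' t-test and 0.125 with the replicate block. It was 0.075 under normexp and 0.081 under cyclic loess. Smad6, which acts mainly on the BMP branch, read -0.18, -0.13, -0.18 and -0.077 in control and -0.46, -0.095, -0.24 and -0.20 with irisin (change -0.11, SE 0.093, adjusted p = 0.47). Smad3 and Smad6 are neighbors on chromosome 9, with 0 protein-coding genes between them in the RefSeq gene order, and their changes of 0.094 and -0.11 on the brighter Smad3 probe and on Smad6 had opposite signs without passing the test.

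Among the corepressors, Ski read -3.37, -3.35, -3.18 and -3.31 in control and -3.53, -3.50, -3.61 and -3.42 with irisin. All irisin arrays were below all control arrays, by 0.21 on average, but the change of -0.21 (SE 0.083, adjusted p = 0.089) did not pass the test. It was -0.39 with an adjusted p of 0.0011 under normexp and -0.073 with an adjusted p of 0.49 under cyclic loess. Tgif1, a homeodomain corepressor, read 4.02, 3.94, 3.96 and 4.00 in control and 3.95, 4.10, 3.78 and 4.00 with irisin, with a change of -0.025 (SE 0.087, 95% interval -0.22 to 0.17, adjusted p = 0.88). For both genes a change of 1.5-fold lay outside the interval.

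Skil, a corepressor that TGFβ itself induces and that is degraded on activation of the pathway, had a probe printed 10 times on each array. Its mean level was 1.32, 1.18, 1.28 and 1.23 in control and 1.34, 0.60, 1.62 and 1.31 with irisin. Irisin replicate 2 was low and irisin replicate 3 high, and both were so on every spot: the 10 spots ran from 0.51 to 0.71 on irisin replicate 2 and from 1.55 to 1.74 on irisin replicate 3, while the control spots ran from 1.10 to 1.39. The SD among spots of 1 array was 0.022 to 0.075, against an SD of 0.44 among the 4 irisin arrays and 0.059 among the 4 control arrays. The spots of an array share 1 RNA sample. This order of irisin replicates 2 and 3 was not particular to Skil. Trim33 (-2.49 and -1.12), Usp9x (-2.13 and -0.53) and Usp15 (0.99 and 1.94), from the regulators below, also had replicate 2 lowest and replicate 3 highest. Others, such as Fkbp1a (6.20 and 5.86), had the reverse order. The change over all arrays was -0.036 (SE 0.18, adjusted p = 0.92), and without irisin replicate 2 it was 0.17 (adjusted p = 0.20). The second Skil probe, a single dim spot, did not single out that array: it read -2.31, -2.22, -2.56 and -2.51 in control and -2.30, -2.27, -2.21 and -2.26 with irisin (change 0.14, SE 0.094, adjusted p = 0.34).

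**Figure D2:**
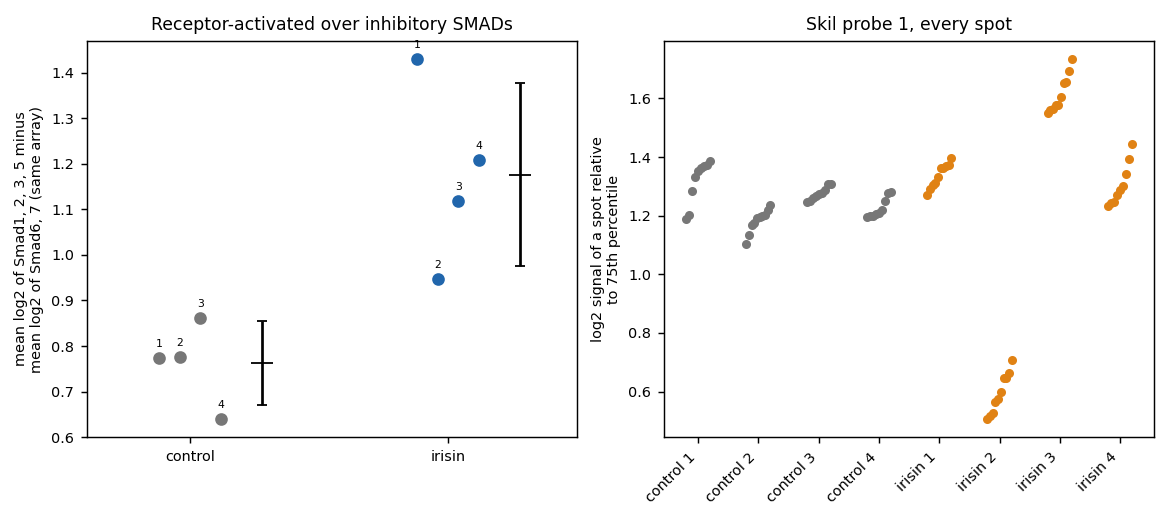
Left, mean log2 level of Smad1, Smad2, Smad3 and Smad5 minus that of Smad6 and Smad7 on the same array, with replicate numbers and the mean and SD of 4 arrays. The control arrays sit between 0.64 and 0.86 and the irisin arrays between 0.95 and 1.43. Right, log2 level of every unmarked spot of Skil probe 1 on each array. Irisin replicate 2 lies below all other arrays at 0.51 to 0.71, and irisin replicate 3 lies above them at 1.55 to 1.74.

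Across the set, 9 of the 16 changes were above 0 and 7 below, with a median of 0.055 beside -0.074 over all tested probes, and they ran from -0.33 to 0.47. For 14 of the 16, the 95% interval lay within 1.5-fold in both directions, as it did for 70% of all tested probes. The exceptions were Smad1 probe 1, whose interval reached 0.68, and Smad7, whose interval reached -0.60. Before adjustment, 6 of the 16 had a p under 0.05, as did 33.9% of all tested probes. The groups did not overlap for 5 of the 16 (Smad1 probe 1, Smad3 probe 2, both Smad5 probes and Ski), against 26.8% of all tested probes, a share near the background. The counts of all called probes were lopsided, with 2752 lower with irisin (11.5% of tested probes) and 178 higher (0.741%), and the set contributed 0 to each.

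**Figure D3:**
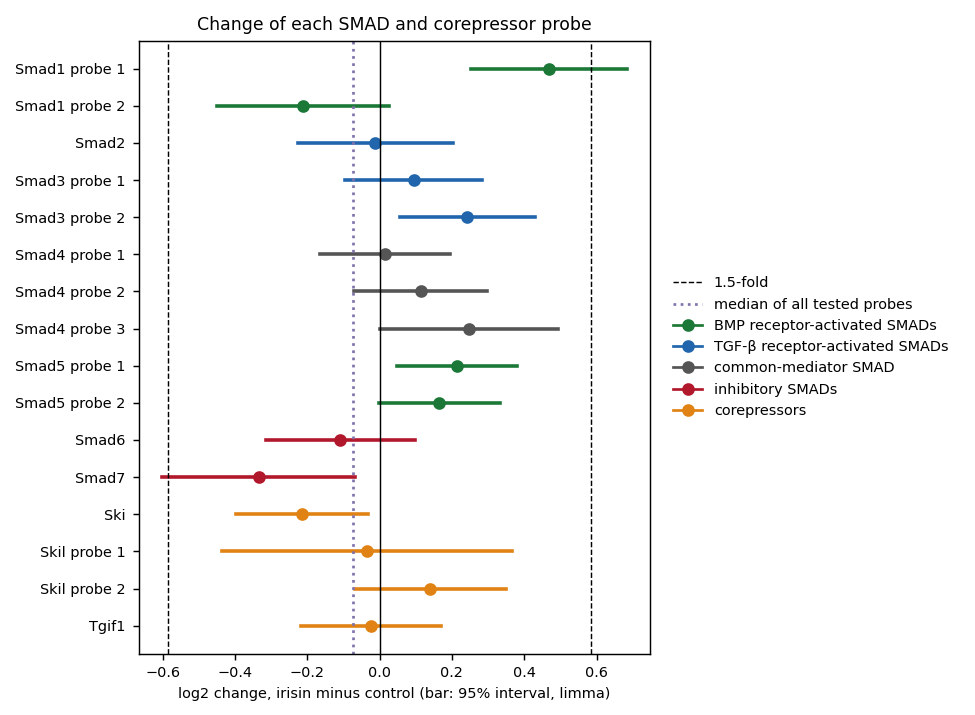
Change of each probe (log2, irisin minus control) with its 95% interval from limma, colored by role. Dashed lines mark 1.5-fold and the dotted line the median of all tested probes, -0.074. Smad1 probe 1 lies at 0.47 and Smad7 at -0.33, and no other interval reaches a dashed line.

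The receptor-activated SMADs were also set against the inhibitory SMADs within each array. This comparison was made after the values were seen, so it is a description and carries no p. With the brightest probe of each gene, the mean of Smad1, Smad2, Smad3 and Smad5 exceeded the mean of Smad6 and Smad7 on the same array by 0.77, 0.78, 0.86 and 0.64 in control and by 1.43, 0.95, 1.12 and 1.21 with irisin. The 4 irisin arrays lay above the 4 control arrays, by 0.41 on average (1.33-fold), and by 0.33 to 0.49 with each array left out. The scaling of an array as a whole cancels in this difference. Of the 8 pairs behind it, the largest was Smad1 probe 1 over Smad7, which went from -2.31 ± 0.080 to -1.51 ± 0.17 (SD, n = 4), and the smallest was Smad2 over Smad6, which went from 0.84 ± 0.13 to 0.94 ± 0.29 and overlapped. Smad5 over Smad7, Smad5 over Smad6, Smad3 over Smad6 and Smad2 over Smad7 overlapped as well. Groups were apart only for Smad1 probe 1 over Smad7 and over Smad6 and for Smad3 over Smad7. The part of Smad1 in the mean difference rests on probe 1 alone, since probe 2 had a change of opposite sign.

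The calls depended on how the arrays were scaled. Relative to the 75th percentile, the median of detected probes, quantiles, cyclic loess or with normexp background correction, 0 of the 16 probes were called. Scaled to the spike-in control probes, where the median of all tested probes itself stood at 0.50, 9 were called, all higher with irisin, beside 34.1% of all tested probes. Without any scaling, where that median stood at 0.66, 13 were called higher, beside 62.6% of all tested probes. These 2 settings add 1 constant to the change of every probe, 0.57 and 0.73, so they leave each member where it was relative to the others. Under the other 4 alternatives 7 of the 16 probes changed sign, all of them with changes between -0.050 and 0.090 there. Smad1 probe 1, both Smad3 probes, Smad4 probes 2 and 3 and Smad5 probe 1 were above 0 under all 7 scalings. Smad1 probe 1 ran from 0.43 to 1.20, and from 0.43 to 0.60 once the median of all tested probes under the same scaling was taken off. Smad7 ran from -0.36 to 0.40, above 0 only under spike-in scaling and without scaling, and it stayed below the median of all tested probes in both.

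**Figure D4:**
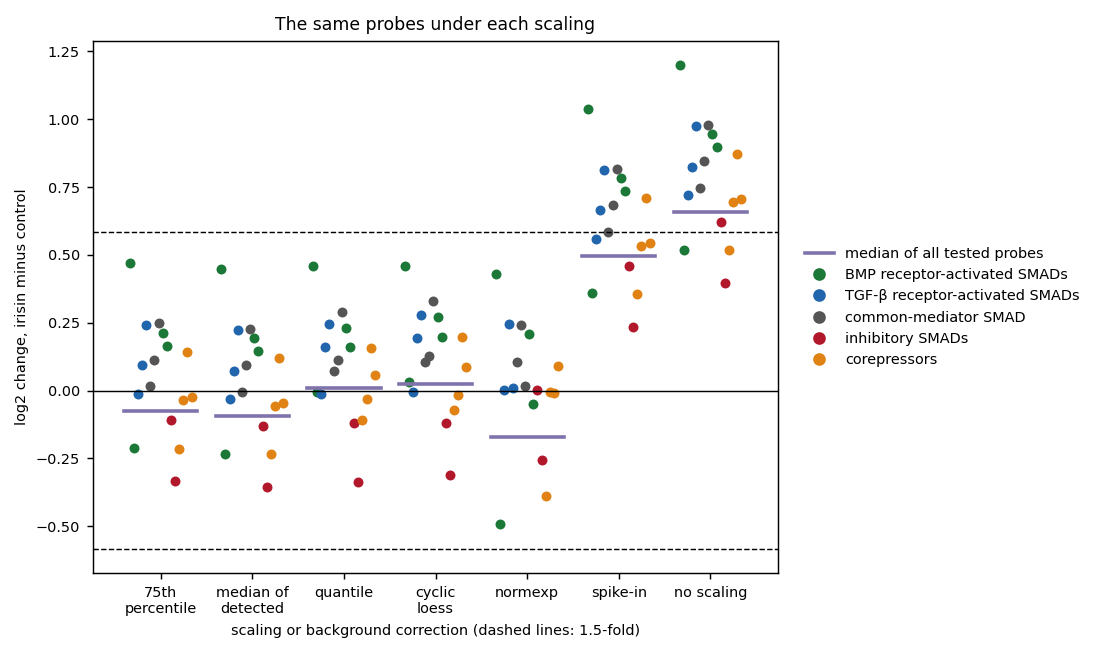
Change of the same 16 probes (log2, irisin minus control) under 7 ways of scaling the arrays or correcting background, colored by role, with the median of all tested probes as a bar and 1.5-fold as dashed lines. Under spike-in scaling and without scaling the whole set shifts with the bar, to 0.50 and 0.66, while under normexp the bar lies at -0.17 and the probes move in both directions. Smad1 probe 1 lies on top in each column.

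Of 45 genes that act on SMADs (ubiquitin ligases, deubiquitinases, phosphatases, anchors, coactivators, corepressors and transport factors), 43 were tested, each by its brightest tested probe. None was called higher and 2 were called lower (4.65%), beside 10.6% of 14260 tested genes, and the median change was -0.043 beside -0.058 over all genes. Ctdsp2, a small phosphatase that removes phosphate from the SMAD linker, read 1.33, 1.45, 1.53 and 1.66 in control and 0.84, 1.06, 0.74 and 0.83 with irisin, and fell by 0.62 on the log2 scale (SE 0.10, adjusted p = 0.0012). Its other 2 tested probes had changes of -0.15 and 0.048. Foxh1, the DNA-binding partner of Smad2 and Smad3 known from the early embryo, read -5.20, -4.85, -4.89 and -4.77 in control and -6.08, -5.26, -5.57 and -5.22 with irisin, a dim probe that fell by 0.61 (SE 0.18, adjusted p = 0.033). Foxh1 was not called under quantile scaling or cyclic loess and Ctdsp2 not under normexp, and neither was called under spike-in scaling or without scaling, where the changes were between -0.055 and 0.12. Without control replicate 4 or without irisin replicate 3, 0 of the list were called.

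The paralogous coactivators Crebbp and Ep300, histone acetyltransferases that SMADs recruit, had changes of opposite sign, neither of them called, except that under spike-in scaling and without scaling Crebbp too stood above 0, at 0.21 and 0.38, and Ep300 was called higher, at 0.97 and 1.14. Crebbp read 0.59, 0.40, 0.21 and 0.39 in control and 0.037, 0.15, 0.076 and -0.092 with irisin (change -0.36, SE 0.099, adjusted p = 0.023). Ep300 read -2.65, -2.72, -2.89 and -2.28 in control and -2.28, -2.41, -2.12 and -2.12 with irisin (change 0.40, SE 0.13, adjusted p = 0.047), and its change under normexp was 0.048. Only for Crebbp were the groups apart. The highest change of the list was 0.48 for the ubiquitin ligase Wwp1 (SE 0.26, adjusted p = 0.23), and the nuclear import factor Ipo7 had 0.36 (SE 0.28, adjusted p = 0.43). Under normexp these became -0.29 and -0.13, and the other tested probe of Wwp1 had a change of -0.028. For Ipo7, irisin replicate 2 read -4.34 while the other irisin arrays read -3.68 to -2.87, the same array on which Skil probe 1 was low. Bambi was well above background on no array, and Ipo8 was left out because its spot was marked as an outlier on control replicate 2.

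Of 37 genes that SMAD complexes are known to induce or repress in other cells, 33 were tested. The test called 1 higher and 3 lower (12.1%, beside 10.6% of all tested genes), and the median change was -0.039. Myc, a growth-promoting transcription factor that SMAD complexes repress, read 2.30, 2.23, 2.30 and 2.50 in control and 2.96, 2.97, 3.00 and 2.96 with irisin, and rose by 0.64 (SE 0.083, adjusted p = 0.00035). Myc was called higher under all 7 scalings. Msx2 and Msx1, homeobox genes that BMP signaling induces, fell by 0.87 (SE 0.083, adjusted p = 0.00011) and by 0.65 (SE 0.088, adjusted p = 0.00044). Col1a2, a fibrillar collagen chain that TGFβ induces, fell by 1.07 (SE 0.21, adjusted p = 0.0032).

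These 3 genes that fell were dim. Msx2 read -3.68, -3.70, -3.66 and -3.59 in control and -4.67, -4.43, -4.56 and -4.46 with irisin, and Msx1 read -4.41, -4.21, -4.42 and -4.39 against -4.86, -5.11, -5.00 and -5.04. Col1a2 read -3.69, -4.18, -4.66 and -4.39 in control and -5.36, -5.00, -5.70 and -5.15 with irisin. In each the groups were apart. None of the 3 was called under spike-in scaling or without scaling, where Msx1 stood at -0.078 and 0.084, and Msx1 was not called under quantile scaling or cyclic loess, where its change was -0.39 and -0.36. The BMP target Hamp, which encodes hepcidin, had a change of 0.39 (SE 0.10, adjusted p = 0.017) with groups apart, below 1.5-fold. It was called higher under quantile scaling (0.63), cyclic loess (0.65), spike-in scaling and without scaling, and had a change of -0.26 under normexp. Also below 1.5-fold were the bright targets Ccn2, a matricellular protein that TGFβ induces (-0.38, SE 0.092, adjusted p = 0.012, groups apart), and Id1, a BMP target that inhibits helix-loop-helix factors (-0.36, SE 0.11, adjusted p = 0.042). Both were named after their values were seen, and both stood above 0 under spike-in scaling (0.19 and 0.21) and without scaling, and at -0.0079 and -0.17 under quantile scaling. Vegfa had a change of 0.24 (SE 0.086, adjusted p = 0.075). Tgfbi, Col3a1, Id4 and Bambi did not reach the test.

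**Figure D5:**
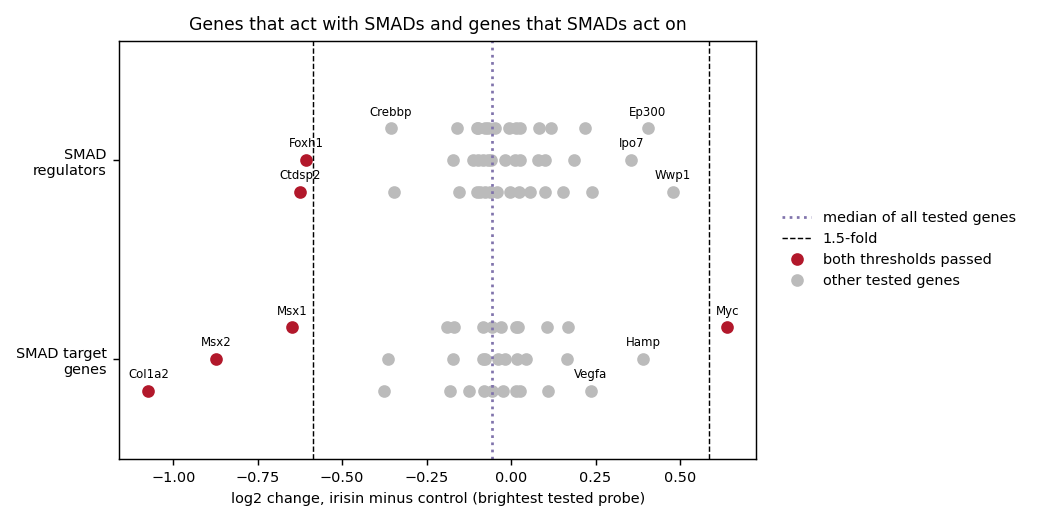
Change (log2, irisin minus control) of the 43 tested regulators and the 33 tested target genes, each by its brightest tested probe, with the genes named in the text labeled. Red points passed both thresholds: Ctdsp2 and Foxh1 among regulators, and Myc, Msx1, Msx2 and Col1a2 among targets, of which Myc alone lies above 0.

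Markers of other cells are given beside these falls because several marker lists moved the same way. Of 5 endothelial markers, 2 were tested: Pecam1 was called lower (-0.60, adjusted p = 0.0021) and Kdr had a change of -0.55, and their summed linear level was 0.62 to 0.70 in control and 0.37 to 0.52 with irisin, in units of the array's 75th percentile. The dim Pecam1 probe was not called under quantile scaling (-0.32), cyclic loess (-0.28), spike-in scaling (-0.033) or without scaling (0.13). Of 6 macrophage or leukocyte markers, 3 were tested and 0 called, with sums of 0.63 to 0.72 in control and 0.52 to 0.62 with irisin. Csf1r (-0.49, limma adjusted p = 0.0017) and Cd3e (-0.50, limma adjusted p = 0.0025) were lower with groups apart, and Cd68 had a change of 0.013. Kdr, Csf1r and Cd3e stood above 0 under spike-in scaling (0.019, 0.083 and 0.067) and without scaling (0.18, 0.24 and 0.23). Of 5 cholangiocyte markers, 4 were tested and 0 called, with sums of 49.9 to 55.6 and 52.7 to 54.8. Hepatocyte marker sums were 452.9 to 501.9 in control and 375.4 to 449.2 with irisin. Such sums weigh the brightest markers most, here Krt18 and Trf. The median change of the 12 hepatocyte markers was -0.089, beside -0.058 over all tested genes. The part of any of these cell types in the falls of Msx1, Msx2, Col1a2 and Foxh1 was not tested.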

How the data were processed

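RNA of AML12 cells, 4 control and 4 irisin samples by the deposited labels, was measured on 8 Agilent arrays with 1 dye, Cy3. The authors read the scans with Agilent Feature Extraction 12 (per the submitters' processing notes), which subtracts background. The authors deposited the scanner output and a value table as signal intensity on a linear scale, with no normalization between arrays. Averaging the processed signal over the spots of a probe returned the value table within 5e-04%. The array design named in the file headers differs from that in the paper's methods, and the headers were followed. The number of arrays limits the precision.

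Marked outlier spots (at most 0.463% of an array) were left out, spots of a probe averaged, log2 taken, and the 75th percentile of each array subtracted. Probes were named by transcript accession through the RefSeq table of GRCm38.p6 (28657 of 39429 probes named, 21608 genes). The files give positions on mm9, so no probe coordinates are printed. Testing required a signal well above background on each array of the control group or of the irisin group and an unmarked spot on each of the 8 arrays. The test was limma 3.58.1 (lmFit, eBayes) in R 4.3.3 over 24008 probes with Benjamini-Hochberg adjustment, called at 1.5-fold and an adjusted p under 0.05, the thresholds of the study's methods. It was tested on simulated data. Changes are log2 of irisin minus control. Single values were also compared by exact two-sided permutation over 70 assignments.

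Every probe of the 10 genes was reported. Of the regulator and target lists, the called genes and the 3 highest and 3 lowest changes were named, with the 3 brightest hepatocyte markers. Smad9, Ccn2, Id1, Trim33, Usp9x, Usp15 and Fkbp1a were named besides. The members and lists were chosen with earlier results of these data known. Alternatives were other scalings, normexp (offset 50, with local backgrounds above 2 times the array's median set to that median), filters, thresholds, the methods' t-test, the replicate block and each array left out. The comparison of receptor-activated with inhibitory SMADs and that of the Smad1 probes within arrays were added after seeing the data.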

Additional observations from a re-analysis of the deposited data

Results flagged for a closer look

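Of 58 groups of 4 arrays checked among the named probes, 2 held an array whose gap to its nearest neighbor was large against the range of its group, and chance alone flags about 1 group in 20. Smad2 read 0.57 on control replicate 4, while the other 3 control arrays read 0.73 to 0.76. Msx1 read -4.21 on control replicate 2, while the other 3 control arrays read -4.42 to -4.39.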

How the results depend on the processing

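Called member probes numbered 9 under spike-in scaling, 13 without scaling and 1 by adjusted p alone, and 0 with any array left out, with the methods' t-test, with the replicate block and under the other alternatives. Called regulators, 2 in the main comparison, numbered 1 under normexp, quantile scaling, cyclic loess, the methods' t-test and the mean over a gene's probes, 0 at 2-fold, 5 by adjusted p alone, 16 under spike-in scaling and 36 without scaling, and 0 to 2 with 1 array left out (0 without control replicate 4 or irisin replicate 3, and 1 without control replicate 2 or 3 or irisin replicate 1). Called targets, 4 in the main comparison, numbered 12 under spike-in scaling, 24 without scaling, 7 by adjusted p alone and 1 at 2-fold, and 4 to 4 with 1 array left out. The cause of these shifts was not tested. Over all tested probes, 178 were called higher and 2752 lower, against 668 and 1016 under quantile scaling (39.7% higher), 697 and 922 under cyclic loess (43.1%), 7826 and 359 under spike-in scaling (95.6%), 14871 and 162 without scaling (98.9%), and 54 and 3522 under normexp, beside 6.08% higher in the main comparison. With 1 array left out, the number called higher ran from 109 without irisin replicate 3 to 361 without irisin replicate 2.

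Several small changes turned sign, and for these the cause was not tested. Under spike-in scaling and without scaling, in that order, the change became 0.36 and 0.52 for Smad1 probe 2, 0.56 and 0.72 for Smad2, 0.46 and 0.62 for Smad6, 0.24 and 0.40 for Smad7, 0.36 and 0.52 for Ski, 0.53 and 0.70 for Skil probe 1, and 0.55 and 0.71 for Tgif1. Under normexp it became 0.0025 for Smad2, -0.050 for Smad5 probe 2, 0.00041 for Smad6, -0.0079 for Skil probe 2 and 0.090 for Tgif1. Under cyclic loess it became 0.030 for Smad1 probe 2 and 0.087 for Tgif1, under quantile scaling 0.057 for Tgif1, and relative to the median of detected probes -0.0051 for Smad4 probe 1. With 1 array left out, Smad2 ran from -0.055 to 0.058, Smad4 probe 1 from -0.011 to 0.065, Skil probe 1 from -0.17 to 0.17 and Tgif1 from -0.074 to 0.034. The Smad1 gap between probes was 0.92 under normexp, 0.46 under quantile scaling and 0.43 under cyclic loess.

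The replicate numbers gave no pairing: arrays of the same number had correlated deviations of 0.11, -0.35, -0.13 and 0.16, and 3 of 8 arrays correlated best with their own number. With the replicate block, 0 member probes, 2 regulators and 4 targets were called, and 175 probes were higher and 2769 lower. All members were well above background on 8 arrays, yet background correction moved dim probes most: under normexp the change of Smad1 probe 2 was -0.49, of Ski -0.39, of Smad3 probe 2 0.010 and of Smad4 probe 3 0.016.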
